A study of Mus musculus with 8 samples.

Results

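The Wnt pathway genes followed here were the Wnt ligands, their Frizzled and Lrp receptors, the secreted and membrane-bound inhibitors, the cytoplasmic regulators Axin and Nkd, and the Tcf/Lef DNA-binding factors. Members were taken by gene symbol from the array annotation: symbols starting with Wnt and a digit, Fzd, Sfrp, Dkk, Axin, Nkd or Tcf7, together with Lrp5, Lrp6, Lef1, Apcdd1, Znrf3, Rnf43 and Wif1. Only probe sets annotated to 1 gene were used, and the probe set with the highest mean over 8 arrays stood for its gene. The rule found 52 genes, with 109 probe sets, of the 18194 genes that the array names this way. Tcf7 was not analysed here. Some symbols met the rule without being what their neighbours are: Fzd10os is an opposite-strand transcript and not a receptor, and Dkkl1 is a Dickkopf-like relative.

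The arrays came from mouse neural stem cells (NSCs) grown as secondary neurospheres, floating clusters passaged once, for 3 or 7 days. Of 4 groups with 2 arrays each, 2 were grown with rcCHIL3 (recombinant chitinase-like protein 3, called ECF-L in the sample labels) and 2 in control medium, MHM (medium hormone mix), which per the study's methods held the growth factors EGF and FGF-2 (GF) and is called MHM+GF here. Per the methods, rcCHIL3 was medium conditioned by HEK293T cells, a human embryonic kidney line, transfected with Chil3, and the sources used here do not say whether GF was added to it in the array cultures. No array of medium from mock-transfected cells is in the series, so CHIL3, other products of the HEK293T cells and the absence or presence of GF cannot be told apart. The design text names adult mouse brain, whereas the methods describe both embryonic and adult forebrain striatum, and neither ties an age or a strain to a given array.

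Wnt proteins are secreted, lipid-modified ligands that bind Frizzled receptors at the cell surface. With the co-receptors Lrp5 or Lrp6 they stop a cytoplasmic complex built on Axin from degrading beta-catenin, which then enters the nucleus and acts with Tcf/Lef factors, while other Wnt-Frizzled pairs act without beta-catenin on cell polarity and movement. Sfrp proteins and Wif1 bind the ligands, Dickkopf proteins such as Dkk1 block the co-receptors, Znrf3 and Rnf43 remove Frizzled from the surface, and Axin2, Nkd1 and Lef1 are induced by the pathway in many tissues. In the adult ventricular-subventricular zone and in the hippocampus, Wnt signals are known to act on the proliferation and neuronal commitment of NSCs.

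Signals were set to an average of 100 on each array, and a member was taken as measurable when its signal reached 50 on at least 2 of 8 arrays. By this filter 21 of the 52 members were measurable and 31 were too dim: 4 of 19 Wnt ligands were measurable (Wnt4, Wnt5a, Wnt7a, Wnt7b), as were 9 of 13 genes of the receptor group (Fzd1, Fzd2, Fzd3, Fzd5, Fzd6, Fzd7, Fzd8, Fzd9, Lrp6), 3 of 10 secreted inhibitors (Dkk3, Sfrp1, Sfrp2), 2 of 3 surface inhibitors (Apcdd1, Znrf3), 1 of 4 cytoplasmic regulators (Axin1) and 2 of 3 DNA-binding factors (Tcf7l1, Tcf7l2). Of the 21, 15 reached 50 on all 8 arrays, and Wnt4 and Fzd6 reached it in 1 group only, so these last 2 passed through the group in which they were high. Fzd8 reached it only on 7-day arrays and Wnt7a only on 3-day arrays. Dkk3 reached it on 1 array of rcCHIL3 at 3 days and 1 of MHM+GF at 7 days. For these members, calls that set those arrays against others are not independent of the filter. Of the 31 dim members, 25 never reached a signal of 25, namely Wnt1, Wnt2, Wnt2b, Wnt3, Wnt3a, Wnt6, Wnt8a, Wnt8b, Wnt9b, Wnt10a, Wnt10b, Wnt16, Fzd4, Fzd10, Fzd10os, Lrp5, Dkk1, Dkk2, Dkk4, Dkkl1, Sfrp5, Wif1, Rnf43, Nkd2 and Lef1. The other 6 lay closer to the filter. Wnt11 ranged over the 8 arrays between 9.4 and 55.1, Sfrp4 between 18.6 and 48.6, Axin2 between 33.6 and 47.7, Nkd1 between 18.8 and 37.6, Wnt9a between 1.5 and 35.2 and Wnt5b between 12.3 and 29.7. A low signal does not show that a transcript was absent, since probe sets differ in sensitivity, and for the same reason no gene's signal was set against another gene's.

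**Figure D1:**
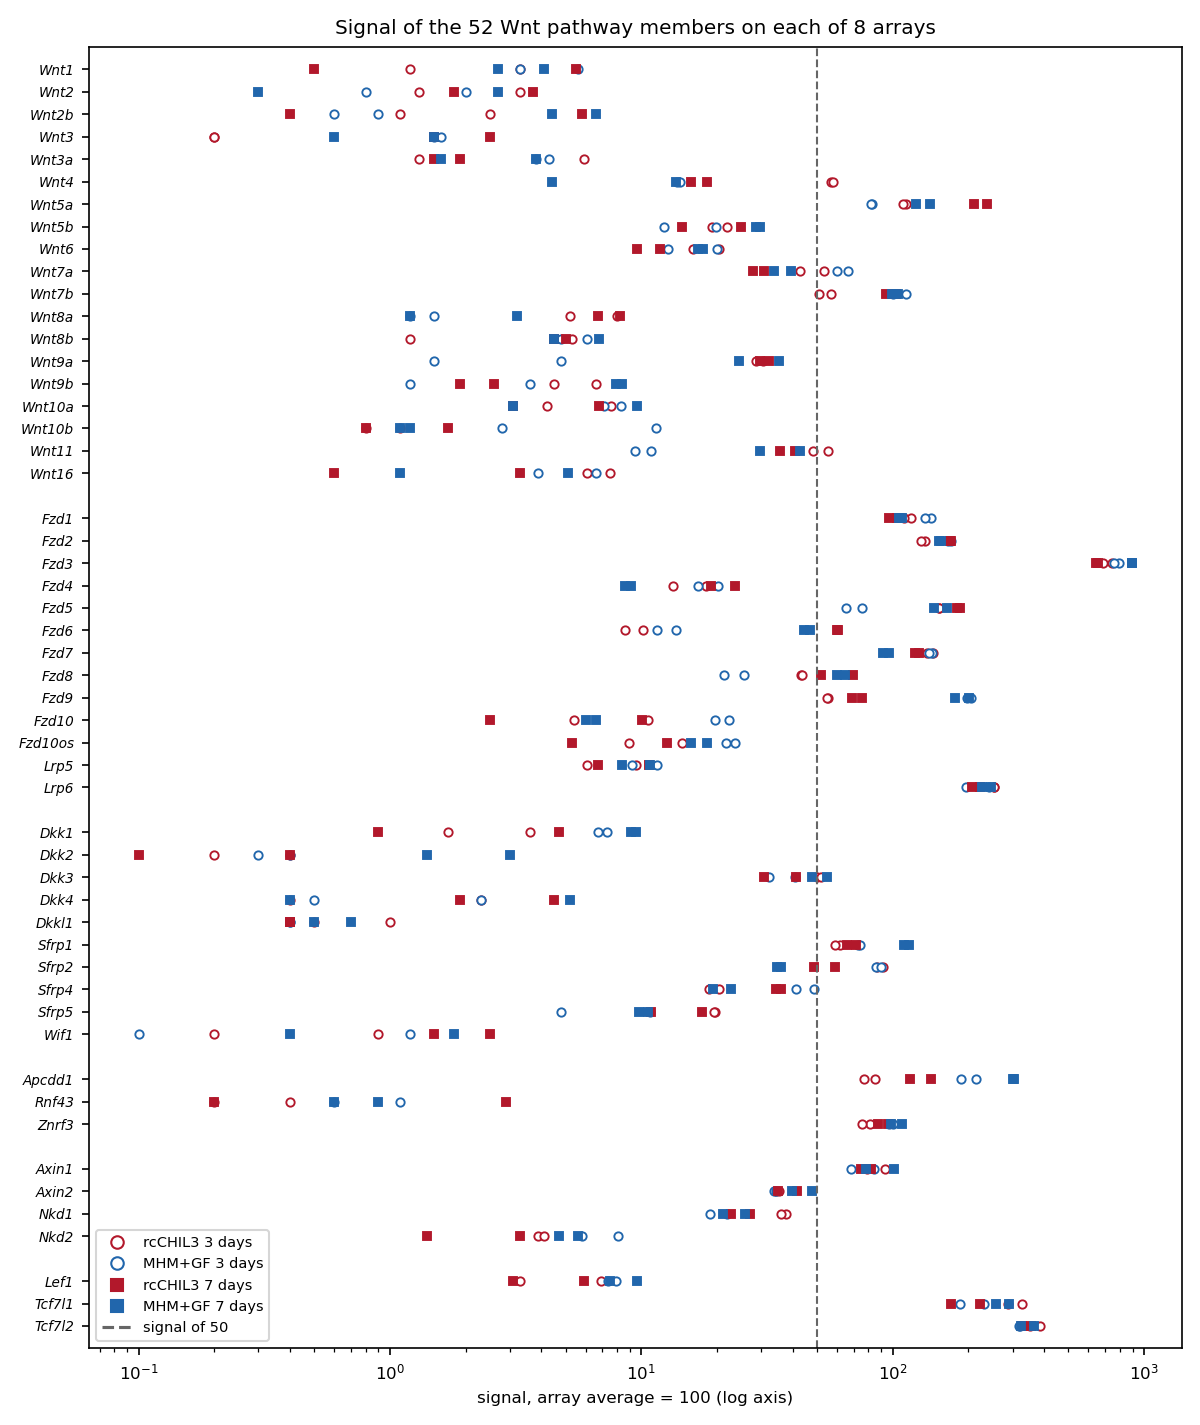
Signal of each of the 52 members on each of the 8 arrays, on a log axis with the array average at 100. Open circles are 3-day and filled squares 7-day cultures, red is rcCHIL3 and blue MHM+GF, and the dashed line marks a signal of 50. The 31 members under the filter lie to its left apart from 1 value of Wnt11, at 55.1.

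The arrays were alike in scale. Before rescaling their average signals lay between 267.3 and 316.6, and between 30.1% and 31.5% of probe sets reached 50 after it. The arrays of a group correlated at 0.992 to 0.994 in log2(signal + 20) over the probe sets kept by the filter. The p-values are from limma with Benjamini-Hochberg adjustment over all probe sets kept by the filter, measure only the spread between 2 arrays a group, and were called below 0.05. Changes are differences of log2(signal + 20), which understate the change of genes with low signals, with their standard error (SE). Neural stem and progenitor markers were present: all 11 measured markers passed the filter, among them Sox2, Vim and Fabp7. Nes, which encodes nestin, passed only through MHM+GF at 3 days, with mean signals of 25.2 and 13.8 in rcCHIL3 at 3 and 7 days and of 186.6 and 29.9 in MHM+GF. None of 8 microglial and none of 8 endothelial markers did, with summed signals per array of 33 to 80 and 21 to 61. In the bulk RNA of a neurosphere, fewer cells of a type and less RNA per cell cannot be told apart.

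Fzd9 and Apcdd1 differed between the media on both days and Fzd5 and Wnt4 at 3 days, by 0.93 or more in log2(signal + 20); Wnt4 had passed the filter only through the 3-day rcCHIL3 arrays, in which it was high. The windows around the starts of Fzd9, Fzd5 and Wnt4 are rich in CpG; they were read from RefSeq on GRCm38.p6 as the 250 bases before and 50 bases after the gene's start. Windows are printed for the receptor that was lower in rcCHIL3 (Fzd9), for the receptor and the ligand that were higher at 3 days (Fzd5, Wnt4), and for Wnt11, a dim ligand with a Tcf/Lef heptamer in this window, in capitals.
Fzd9 (chr5:135250998-135251297, minus strand): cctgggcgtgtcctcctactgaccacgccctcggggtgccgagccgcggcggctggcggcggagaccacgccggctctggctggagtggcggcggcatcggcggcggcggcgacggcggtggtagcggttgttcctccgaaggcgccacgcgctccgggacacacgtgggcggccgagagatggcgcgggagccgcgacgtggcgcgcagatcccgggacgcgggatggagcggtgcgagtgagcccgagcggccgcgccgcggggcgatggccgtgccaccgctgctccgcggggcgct
Fzd5 (chr1:64737701-64738000, minus strand): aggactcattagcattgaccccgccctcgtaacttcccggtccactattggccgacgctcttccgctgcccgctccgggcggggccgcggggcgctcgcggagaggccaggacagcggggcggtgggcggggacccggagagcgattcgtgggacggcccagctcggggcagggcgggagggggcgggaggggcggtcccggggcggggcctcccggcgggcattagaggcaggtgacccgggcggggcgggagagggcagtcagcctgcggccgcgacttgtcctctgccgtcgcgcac
Wnt4 (chr4:137277385-137277684, plus strand): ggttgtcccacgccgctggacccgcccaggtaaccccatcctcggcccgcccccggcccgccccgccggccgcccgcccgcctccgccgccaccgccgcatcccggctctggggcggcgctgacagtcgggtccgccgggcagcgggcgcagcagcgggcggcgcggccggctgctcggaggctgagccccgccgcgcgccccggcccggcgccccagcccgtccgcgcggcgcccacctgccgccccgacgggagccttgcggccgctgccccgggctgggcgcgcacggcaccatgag
Wnt11 (chr7:98834862-98835161, plus strand): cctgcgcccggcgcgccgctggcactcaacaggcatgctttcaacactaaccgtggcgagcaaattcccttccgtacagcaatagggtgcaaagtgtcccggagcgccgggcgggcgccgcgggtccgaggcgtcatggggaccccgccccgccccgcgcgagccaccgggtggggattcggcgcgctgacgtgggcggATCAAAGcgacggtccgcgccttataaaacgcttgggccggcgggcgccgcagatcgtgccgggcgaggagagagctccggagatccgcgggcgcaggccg
The heptamers searched were CTTTGAT and CTTTGAA on both strands, the core letters that Tcf/Lef factors are known to bind; the capitals in Wnt11 are the first of these read on the opposite strand. The bases G and C made up 78.0% of the Fzd9 window, 75.7% of that of Fzd5, 84.3% of that of Wnt4 and 71.3% of that of Wnt11, with 53, 38, 51 and 45 CpG. RefSeq windows were at hand for 34 members (42 windows), and 3 members had a match, Wnt11, Wnt5b and Dkk1, all of them under the filter. None of the 9 measurable members with a window had one. Of all 32851 windows of the same length, 2842 (8.65%) held at least 1 match. A match is a description of these letters alone.

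At 3 days, members moved in both directions. Of the 21 measurable members 6 were higher and 7 lower in rcCHIL3 than in MHM+GF, and 8 were not called. Among all 8966 genes measured in the same way 30.3% were called higher and 22.1% lower. The median change of the members was 0.00, against 0.04 over all genes, with members between -1.56 and 1.18. On the deposited scale, without rescaling, 8 members were higher and 7 lower of 32 over the filter. No share over all genes was taken on that scale, so this count cannot be read against the shares above.

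At 7 days, 4 members were higher and 6 lower in rcCHIL3, against 21.8% and 22.6% of all genes, and 11 were not called. The median was -0.09 for the members and -0.01 for all genes. On the deposited scale the split was 6 higher and 5 lower of 32, again without a share over all genes. By both days, at the brightest probe sets, Wnt5a was higher at each and Apcdd1 and Fzd9 were lower at each. Dkk3 and Tcf7l1 were higher at 3 days and lower at 7 days there, and Axin1, Lrp6 and Tcf7l2 were called at neither.

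**Figure D2:**
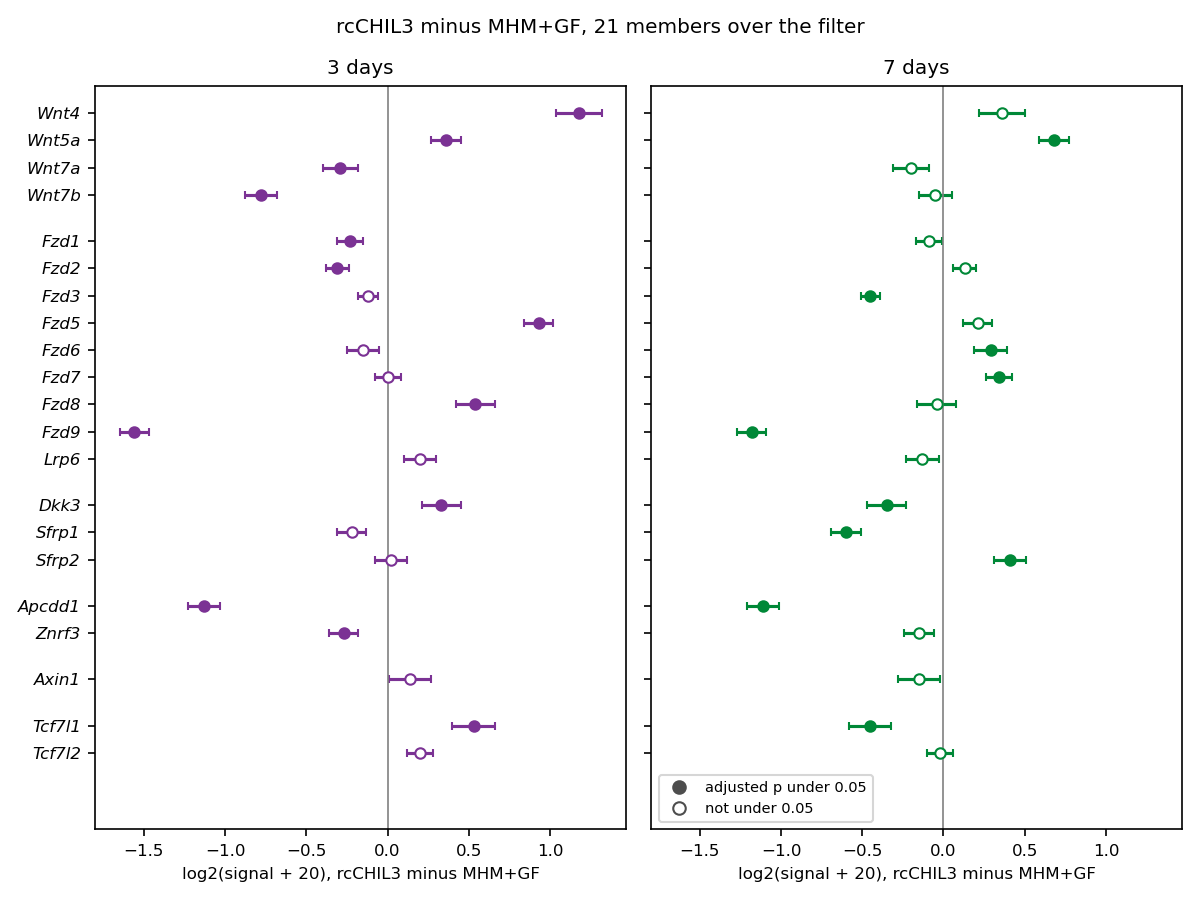
Change in log2(signal + 20) between rcCHIL3 and MHM+GF for the 21 measurable members, at 3 days (left) and 7 days (right). Points are the fitted change with its SE (2 arrays a group), filled where the adjusted p was under 0.05; Fzd9 and Apcdd1 lie furthest to the left at both days, at -1.56 and -1.13 and then at -1.18 and -1.11.

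Among the ligands, Wnt4 was higher in rcCHIL3 at 3 days, Wnt7b was lower then, and Wnt5a was higher at both days. Wnt4, a ligand known for its part in the kidney, the gonad and the synapse, had signals of 56.6 and 58.0 in rcCHIL3 and of 13.9 and 14.2 in MHM+GF at 3 days, and of 18.2 and 15.8 in rcCHIL3 and of 13.8 and 4.4 in MHM+GF at 7 days. Only the 3-day rcCHIL3 arrays reached 50, so Wnt4 was tested because it was high there, and its 3-day call is not independent of the filter. The media did not overlap at either day. The change was 1.18 ± 0.14 at 3 days (adjusted p = 2.8e-05), a ratio of mean signals of 4.08, and 0.36 ± 0.14 at 7 days (adjusted p = 0.052). Without MHM+GF 7 days replicate 1 the 7-day change was 0.60 (adjusted p = 0.0034).

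Wnt7b, a ligand that acts through beta-catenin and is known for its part in brain vessel growth and dendrites, showed the opposite order. Its signals were 56.6 and 50.9 in rcCHIL3 and 113 and 100 in MHM+GF at 3 days, and 103 and 94.1 in rcCHIL3 and 105 and 99.5 in MHM+GF at 7 days. The 3-day rcCHIL3 arrays stood below the 6 others, and at 7 days the media overlapped. The change was -0.78 ± 0.10 at 3 days (adjusted p = 4.3e-05) and -0.05 ± 0.10 at 7 days (adjusted p = 0.72). Wnt7a, its close relative, was lower at 3 days by a smaller amount (-0.29 ± 0.11, adjusted p = 0.047), and that call was lost when MHM+GF 3 days replicate 1 or 2, rcCHIL3 3 days replicate 2 or either 7-day rcCHIL3 array was left out; without rcCHIL3 3 days replicate 2 the change was -0.18. At 7 days it was -0.20 ± 0.11 (adjusted p = 0.17).

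Wnt5a, the best known ligand of the branch without beta-catenin, had signals of 113 and 110.2 in rcCHIL3 and of 83.0 and 82.2 in MHM+GF at 3 days. At 7 days it had 212 and 236 in rcCHIL3 and 124 and 141 in MHM+GF. The highest arrays of the 8 were both of rcCHIL3 at 7 days, and the media did not overlap at either day. Wnt5a was higher by 0.36 ± 0.09 at 3 days (adjusted p = 0.0056) and by 0.68 ± 0.09 at 7 days (adjusted p = 0.00012), which is 1.35 and 1.69 times the MHM+GF mean. On the deposited scale the 3-day change of 0.34 was not called (adjusted p = 0.094). A second probe set of Wnt5a was called higher at 7 days alone, by 0.49.

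Among the receptors, Fzd9 fell at both days, Fzd5 and Fzd8 rose at 3 days, and others moved by less. Fzd9, a receptor known from the hippocampus and neural precursors, had signals of 55.2 and 55.0 in rcCHIL3 and of 198 and 204 in MHM+GF at 3 days, and of 75.2 and 69.2 in rcCHIL3 and of 177 and 200.4 in MHM+GF at 7 days. All 4 rcCHIL3 arrays lay far below the lowest MHM+GF array, with no overlap. The change was -1.56 ± 0.09 at 3 days (adjusted p = 7.8e-08) and -1.18 ± 0.09 at 7 days (adjusted p = 1.9e-06), with rcCHIL3 means at 0.274 and 0.382 times those of MHM+GF.

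Fzd5, a receptor known for its part in the eye and in yolk sac vessels, had signals of 153 and 153 in rcCHIL3 and of 65.3 and 75.8 in MHM+GF at 3 days. At 7 days its signals were 185 and 180.1 in rcCHIL3 and 146 and 165 in MHM+GF. The 3-day MHM+GF arrays stood below all 6 others. The change was 0.93 ± 0.09 at 3 days (adjusted p = 6.1e-06), a ratio of means of 2.17, and 0.21 ± 0.09 at 7 days (adjusted p = 0.078).

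Fzd8, another receptor of the beta-catenin branch, followed the same order at a lower signal. It had 43.0 and 43.5 in rcCHIL3 and 21.4 and 25.6 in MHM+GF at 3 days, against 51.7 and 69.8 in rcCHIL3 and 60.0 and 64.5 in MHM+GF at 7 days. No 3-day array reached 50, and the 7-day groups overlapped. It was higher by 0.54 ± 0.12 at 3 days (adjusted p = 0.0027), where a second probe set gave 0.94, and the 7-day change was -0.04 ± 0.12 (adjusted p = 0.83).

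At their brightest probe sets the other receptors differed by less than 0.5. Fzd1 was -0.23 ± 0.08 at 3 days (adjusted p = 0.041; called only with all 4 arrays of that day) and -0.09 ± 0.08 at 7 days (adjusted p = 0.43). Fzd7 was 0.00 ± 0.08 at 3 days (adjusted p = 0.99) and 0.34 ± 0.08 at 7 days (adjusted p = 0.0052). Fzd6, which with Fzd3 is known from planar polarity, was -0.15 ± 0.10 (adjusted p = 0.22) and 0.29 ± 0.10 (adjusted p = 0.032), and its 7-day call was lost without any 1 of the 4 arrays of that day. Only the 7-day rcCHIL3 arrays of Fzd6 reached 50, so that call is not independent of the filter. Lrp6, the co-receptor, was 0.20 ± 0.10 (adjusted p = 0.098) and -0.13 ± 0.10 (adjusted p = 0.28), and without MHM+GF 3 days replicate 1, the higher array of that pair, the 3-day change was 0.34 (adjusted p = 0.014). Fzd3 and Fzd2 cannot be given 1 direction, because their probe sets disagreed. The brightest probe set of Fzd3 gave -0.12 ± 0.06 at 3 days (adjusted p = 0.14) and -0.45 ± 0.06 at 7 days (adjusted p = 0.00019), but of its 3 measurable probe sets 1 was called higher and 2 lower at 7 days, between -0.45 and 0.39. The 3 of Fzd2 were all lower at 3 days, between -0.60 and -0.25, with the brightest at -0.31 ± 0.07 (adjusted p = 0.0048), and ran between -0.60 and 0.22 at 7 days, where the brightest gave 0.13 ± 0.07 (adjusted p = 0.19).

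Among the inhibitors, Apcdd1 was the one that fell strongly in rcCHIL3. Apcdd1, a membrane glycoprotein that binds Wnt and Lrp and dampens the beta-catenin branch, had signals of 85.0 and 76.8 in rcCHIL3 and of 188 and 215 in MHM+GF at 3 days, and of 118 and 142 in rcCHIL3 and of 299.9 and 304 in MHM+GF at 7 days. The 4 rcCHIL3 arrays all lay below the 4 MHM+GF arrays, and in each medium the 7-day arrays lay above the 3-day ones. The change was -1.13 ± 0.10 at 3 days (adjusted p = 2.6e-06) and -1.11 ± 0.10 at 7 days (adjusted p = 6.9e-06), with rcCHIL3 at 0.402 and 0.429 times the MHM+GF mean. All 4 measurable probe sets of Apcdd1 were called lower at both days, between -1.13 and -0.56 at 3 days and between -1.11 and -0.43 at 7 days. Znrf3, a ubiquitin ligase that clears Frizzled from the surface, was -0.27 ± 0.09 at 3 days (adjusted p = 0.030), a call lost without any 1 of the 4 arrays of that day, and -0.15 ± 0.09 at 7 days (adjusted p = 0.20).

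Sfrp1 and Sfrp2, both secreted proteins with a Frizzled-like domain, moved in opposite directions at 7 days. Sfrp1 had 62.0 and 59.1 in rcCHIL3 and 72.7 and 74.3 in MHM+GF at 3 days, and 65.9 and 71.2 in rcCHIL3 and 117 and 111 in MHM+GF at 7 days. The MHM+GF arrays of 7 days stood above the 6 others. The change was -0.22 ± 0.09 at 3 days (adjusted p = 0.062) and -0.60 ± 0.09 at 7 days (adjusted p = 0.00029), and all 3 measurable probe sets of Sfrp1 were lower at 7 days, between -0.66 and -0.36. At 3 days 1 of the 3 was called lower (-0.41, adjusted p = 0.0075), and the mean of the probe sets gave -0.29 (adjusted p = 0.015).

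Sfrp2 had 91.6 and 87.0 in rcCHIL3 and 86.0 and 89.6 in MHM+GF at 3 days, and 48.5 and 59.0 in rcCHIL3 and 36.1 and 34.8 in MHM+GF at 7 days. The media overlapped at 3 days and not at 7 days. The change was 0.02 ± 0.10 (adjusted p = 0.88) and then 0.41 ± 0.10 (adjusted p = 0.0065); the 7-day change was 0.31 (adjusted p = 0.061) without rcCHIL3 7 days replicate 2. Dkk3, a divergent Dickkopf, was higher by 0.33 ± 0.12 at 3 days (adjusted p = 0.039) and lower at 7 days (-0.35 ± 0.12, adjusted p = 0.034), at signals of 30.9 to 54.7. The means of its dim second probe set at 3 days were 41.9 for rcCHIL3 against 25.2 for MHM+GF. By 7 days they were 19.7 against 20.4, nearly level. Dkk3 reached 50 only in the higher group of each day, so neither of these calls is independent of the filter. Its 3-day call was lost without MHM+GF 3 days replicate 1 or either rcCHIL3 array of that day, and its 7-day call without MHM+GF 7 days replicate 1, rcCHIL3 7 days replicate 2 or either 3-day rcCHIL3 array; leaving out rcCHIL3 7 days replicate 2 left -0.22 and leaving out MHM+GF 3 days replicate 1 left 0.22.

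Of the nuclear factors, Tcf7l1 changed sides between the days and Tcf7l2 was not called. Tcf7l1, mostly known as a repressor that keeps Wnt targets silent, had signals of 327 and 288 in rcCHIL3 and of 185 and 231 in MHM+GF at 3 days, and of 171 and 223 in rcCHIL3 and of 258 and 291 in MHM+GF at 7 days. The media did not overlap at either day, with rcCHIL3 above MHM+GF at 3 days and below it at 7 days. The change was 0.53 ± 0.13 at 3 days (adjusted p = 0.0046) and -0.45 ± 0.13 at 7 days (adjusted p = 0.014). Single arrays ended these calls: without MHM+GF 3 days replicate 1 the 3-day change was 0.38 (adjusted p = 0.050) and without rcCHIL3 3 days replicate 1 it was 0.44 (adjusted p = 0.051), while the 7-day change was -0.37 (adjusted p = 0.085) without MHM+GF 7 days replicate 2 and -0.28 (adjusted p = 0.13) without rcCHIL3 7 days replicate 1. Only 1 of its 2 probe sets was called at either day.

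Tcf7l2, an effector of the beta-catenin branch, had 385 and 353 in rcCHIL3 and 320.2 and 318 in MHM+GF at 3 days, and 354 and 327 in rcCHIL3 and 366 and 324 in MHM+GF at 7 days. The 7-day groups overlapped. The changes were 0.20 ± 0.08 (adjusted p = 0.056) and -0.02 ± 0.08 (adjusted p = 0.89). Without either of the 7-day MHM+GF arrays the adjusted p of the 3-day change was 0.040 and 0.039. Axin1, the scaffold of the complex that degrades beta-catenin, was 0.14 ± 0.13 (adjusted p = 0.38) and -0.15 ± 0.13 (adjusted p = 0.36). Axin2, Nkd1 and Lef1, the induced genes named above, were not measurable. They are not the only genes known to be induced by the pathway, and a list of further targets is counted below.

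**Figure D3:**
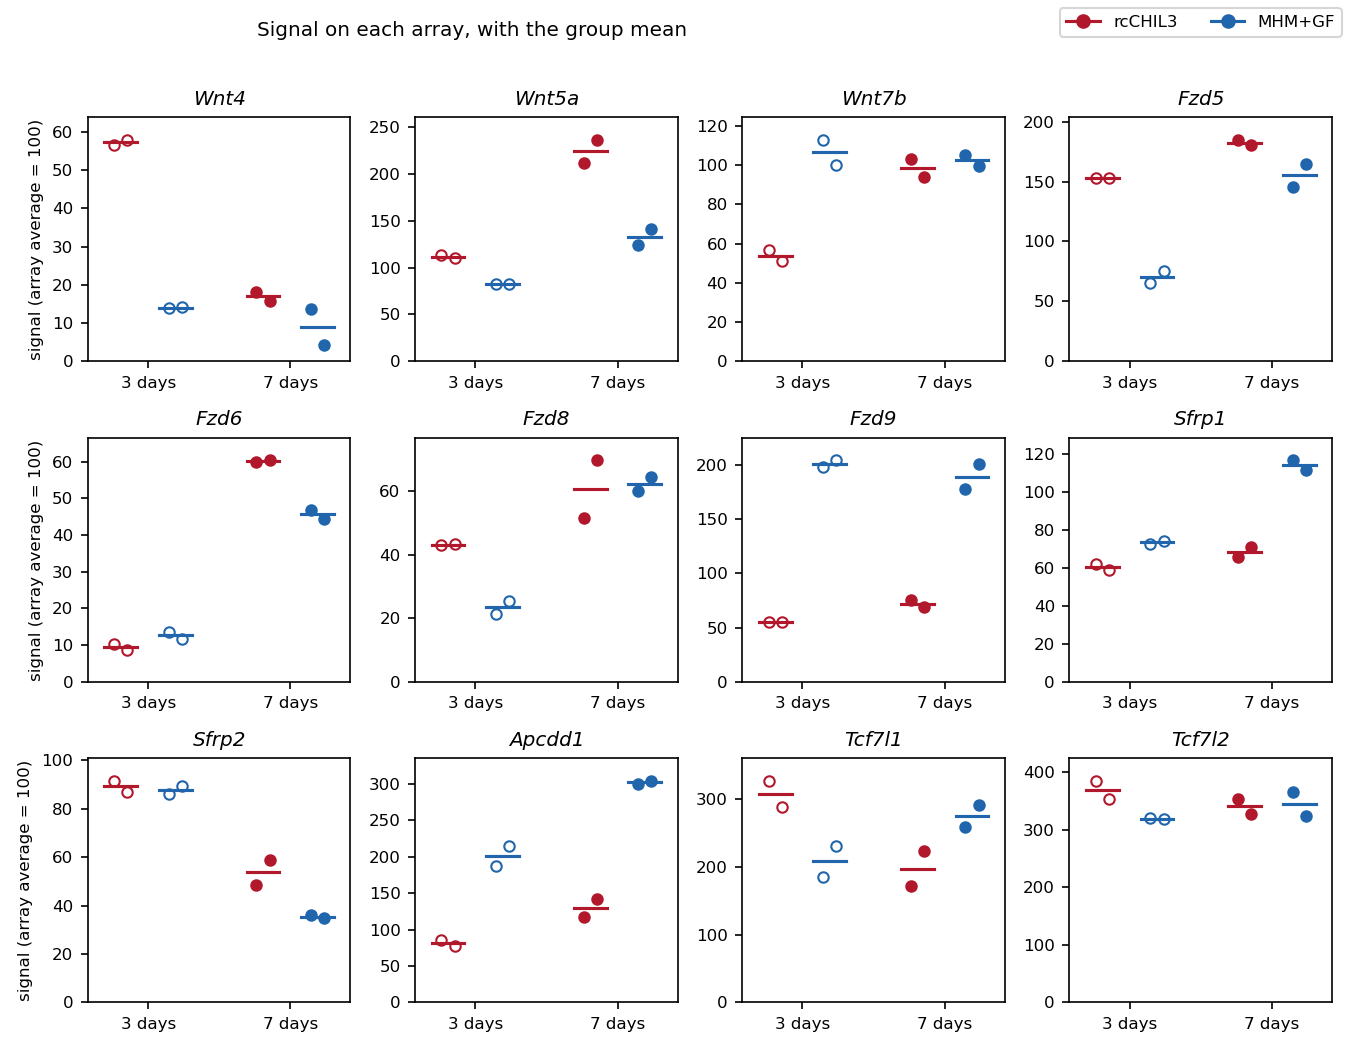
Signals of 12 members on each array (array average 100), with rcCHIL3 in red and MHM+GF in blue, 3-day cultures open and 7-day cultures filled; bars are the means of 2 arrays. In Fzd9 and Apcdd1 the red points lie below the blue at both days, in Wnt4 the 3-day rcCHIL3 arrays stand alone at 56.6 and 58.0, and in Tcf7l1 the order of the media turns between the days.

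The difference between the days was tested in the same fit. For 6 members the change in rcCHIL3 relative to MHM+GF was more positive at 7 days than at 3 days, and for 7 it was less positive, against 19.2% and 24.1% of all genes. The median over the members was 0.02 and over all genes -0.05. The largest differences were -0.98 ± 0.18 for Tcf7l1 (adjusted p = 0.0012), -0.82 ± 0.20 for Wnt4 (adjusted p = 0.0062), 0.73 ± 0.14 for Wnt7b (adjusted p = 0.0013) and -0.72 ± 0.13 for Fzd5 (adjusted p = 0.00097). That of Wnt4 is not independent of the filter, which Wnt4 passed only through the 3-day rcCHIL3 arrays. At the second measurable probe set of Tcf7l1 the difference was -0.48 (adjusted p = 0.19). For Apcdd1 it was 0.02 ± 0.14 (adjusted p = 0.92), and for Wnt5a 0.32 ± 0.13 (adjusted p = 0.064), or 0.39 (adjusted p = 0.043) without MHM+GF 7 days replicate 2. For Lrp6 it was -0.33 ± 0.13 (adjusted p = 0.067), or -0.48 (adjusted p = 0.012) without MHM+GF 3 days replicate 1. On the deposited scale 8 of 32 members were more positive and 6 less so, with no share over all genes taken there.

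Between 3 and 7 days, the same members did not move alike in the media. In rcCHIL3 7 members rose and 5 fell, against 20.3% and 18% of all genes. In MHM+GF 9 rose and 4 fell, against 34% and 24.2%. The median change with time was -0.10 for the members and 0.01 for all genes in rcCHIL3, and 0.11 and 0.07 in MHM+GF. On the deposited scale, with 32 members over the filter, 8 rose and 4 fell in rcCHIL3 and 9 rose and 7 fell in MHM+GF. The shares over all genes given here are not of that scale. At their brightest probe sets Apcdd1, Fzd6, Fzd8 and Wnt5a rose in both media, Sfrp2 and Wnt7a fell in both, Dkk3 and Tcf7l1 fell in rcCHIL3 and rose in MHM+GF, and Axin1, Lrp6, Tcf7l2 and Znrf3 were called in neither. Fzd8 had reached 50 only on 7-day arrays, Wnt7a only on 3-day arrays and Dkk3 only in the higher group of each medium. The time calls of Fzd8, Wnt7a and Dkk3 are thus not independent of the filter. A second probe set of Tcf7l2 was called higher over time in MHM+GF (0.47, adjusted p = 0.012), and the mean of its probe sets gave 0.29 (adjusted p = 0.021). The second of Tcf7l1 was called in neither medium (-0.21 in rcCHIL3, adjusted p = 0.43, and 0.27 in MHM+GF, adjusted p = 0.27). The dim second probe set of Dkk3 had lower means at 7 than at 3 days in both media, with 20.4 against 25.2 in MHM+GF.

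Fzd6 was higher at 7 days than at 3 days in both media. It had passed the filter only through the 7-day rcCHIL3 arrays, so its rise in rcCHIL3 is not independent of the filter. Its signals in rcCHIL3 were 60.0 and 60.4 at 7 days and 10.2 and 8.6 at 3 days. In MHM+GF they were 46.8 and 44.5 at 7 days and 13.7 and 11.6 at 3 days. All 4 of the 3-day arrays lay far under the filter. The rise was 1.45 ± 0.10 in rcCHIL3 (adjusted p = 1.1e-06) and 1.01 ± 0.10 in MHM+GF (adjusted p = 5.4e-06). Wnt5a rose by 0.89 ± 0.09 in rcCHIL3 (adjusted p = 2.2e-05) and by 0.57 ± 0.09 in MHM+GF (adjusted p = 0.00023), and its second measurable probe set gave 0.40 in rcCHIL3 (adjusted p = 0.010) and 0.03 in MHM+GF (adjusted p = 0.81). Fzd8 rose in MHM+GF by 0.92 ± 0.12 (adjusted p = 5.3e-05), and by 1.55 at its second probe set. Both probe sets reached 50 only on 7-day arrays, so the rise of Fzd8 in either medium is not independent of the filter. Apcdd1 rose by 0.57 ± 0.10 (adjusted p = 0.0011) and 0.55 ± 0.10 (adjusted p = 0.00066).

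Other members changed with time in a single medium. Fzd5 rose in MHM+GF by 0.95 ± 0.09 (adjusted p = 4.7e-06) and gave 0.23 ± 0.09 in rcCHIL3 (adjusted p = 0.071). Sfrp1 rose in MHM+GF by 0.52 ± 0.09 (adjusted p = 0.00044) and gave 0.14 ± 0.09 in rcCHIL3 (adjusted p = 0.25). Wnt7b rose in rcCHIL3 by 0.68 ± 0.10 (adjusted p = 0.00022) and gave -0.05 ± 0.10 in MHM+GF (adjusted p = 0.71), and Wnt4 gave -1.06 ± 0.14 in rcCHIL3 (adjusted p = 0.00014) and -0.24 ± 0.14 in MHM+GF (adjusted p = 0.15; -0.48 and 0.0073 without MHM+GF 7 days replicate 1). The difference between the media in such a change is the same contrast as the difference between the days given above; for Sfrp1 it was -0.38 ± 0.13 (adjusted p = 0.030), a call that was kept with 1 array left out only where that was rcCHIL3 7 days replicate 2. In rcCHIL3 the smaller time calls rested on single arrays. The rise of Fzd8 (0.34 ± 0.12, adjusted p = 0.042) was lost without either 3-day rcCHIL3 array and was 0.18 without rcCHIL3 7 days replicate 2, and that of Fzd9 (0.30 ± 0.09, adjusted p = 0.023) was lost without either 3-day rcCHIL3 array (0.30 and 0.29) or without rcCHIL3 7 days replicate 1 (0.25). The fall of Dkk3 (-0.34 ± 0.12, adjusted p = 0.044) was lost in the same way as that of Fzd8, with -0.21 without rcCHIL3 7 days replicate 2, and that of Wnt7a (-0.46 ± 0.11, adjusted p = 0.0073) was -0.35 (adjusted p = 0.078) without rcCHIL3 3 days replicate 1. In MHM+GF the rises of Dkk3 (0.34 ± 0.12, adjusted p = 0.032) and Tcf7l1 (0.38 ± 0.13, adjusted p = 0.024) were both 0.23 and not called without MHM+GF 3 days replicate 1, and also lost without 1 array of 7 days, replicate 1 for Dkk3 (0.27) and replicate 2 for Tcf7l1 (0.30). Fzd1 gave -0.31 ± 0.08 (adjusted p = 0.0085), and -0.27, not called, without MHM+GF 3 days replicate 1. The brightest probe set of Fzd3 gave 0.20 ± 0.06 (adjusted p = 0.016), not called without MHM+GF 3 days replicate 2 (0.17) or either 7-day array. Another probe set of Fzd3 was called in the opposite direction in MHM+GF (-0.34, adjusted p = 0.041). Lrp6 gave -0.22 ± 0.10 in rcCHIL3 (adjusted p = 0.090; 0.044 and 0.043 without MHM+GF 3 days replicate 1 and 2) and 0.11 ± 0.10 in MHM+GF (adjusted p = 0.34; 0.25 and 0.047 without MHM+GF 3 days replicate 1). Sfrp2 fell in both media, by 0.57 ± 0.10 in rcCHIL3 (adjusted p = 0.0010) and by 0.96 ± 0.10 in MHM+GF (adjusted p = 9.2e-06).

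**Figure D4:**
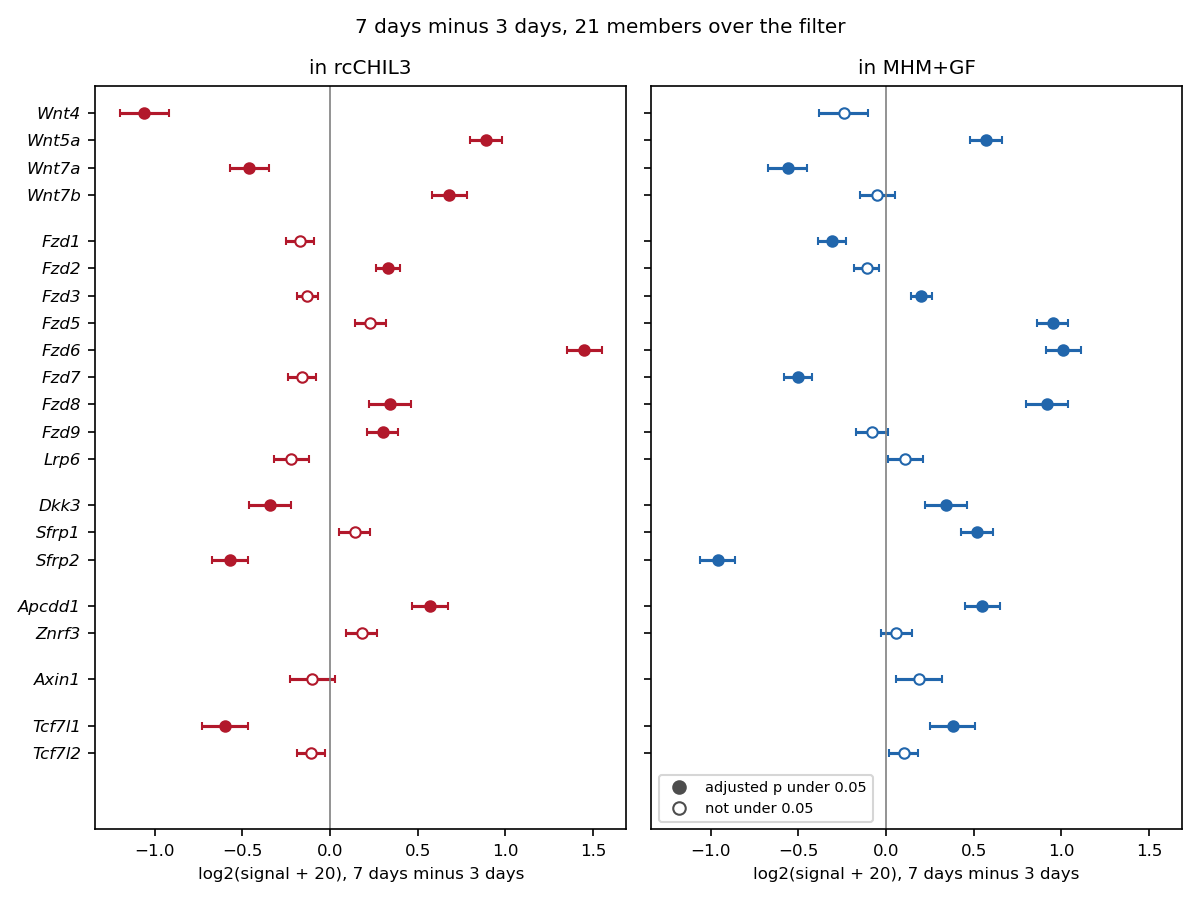
Change in log2(signal + 20) between 3 and 7 days for the 21 measurable members in rcCHIL3 (left) and MHM+GF (right), 7 minus 3 days. Points are the fitted change with its SE (2 arrays a group), filled where the adjusted p was under 0.05; Fzd6 lies at 1.45 and 1.01, and Tcf7l1 lies left of 0 in rcCHIL3 and right of it in MHM+GF.

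Wnt11 was looked at after its values were seen, since it was the dim member that came closest to the filter. It had signals of 55.1 and 48.0 in rcCHIL3 and of 10.9 and 9.4 in MHM+GF at 3 days, and of 41.0 and 35.6 in rcCHIL3 and of 29.8 and 42.8 in MHM+GF at 7 days. The 3-day MHM+GF arrays stood below the other 6. With all probe sets of the array in the fit the change was 1.24 ± 0.13 at 3 days (adjusted p = 0.00025) and 0.06 ± 0.13 at 7 days (adjusted p = 0.85), at signals too low for a reliable level.

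The rest of the pathway was counted from lists of genes in the same fit, to be read beside the shares over all genes of 30.3% higher and 22.1% lower at 3 days and 21.8% and 22.6% at 7 days. Of the genes for Wnt secretion and agonists 3 of 8 were measurable, and the 4 R-spondins were not. At 3 days 1 was lower, Ndp, the Norrin ligand of Fzd4 (-0.56 ± 0.10, adjusted p = 0.00070), and at 7 days 1 was higher, Porcn, the enzyme that puts the lipid on Wnt (0.58 ± 0.09, adjusted p = 0.00038). Wls, the carrier that brings Wnt to the surface, was 0.01 ± 0.09 at 3 days (adjusted p = 0.93) and 0.00 ± 0.09 at 7 days (adjusted p = 0.97). Of the co-receptors and surface regulators 8 of 19 were measurable, with 1 higher and 2 lower at 3 days and 3 higher and 0 lower at 7 days. Sdc4, a syndecan, was higher at both days (0.53 ± 0.09, adjusted p = 0.00033; 0.61 ± 0.09, adjusted p = 0.00019). Tspan12, a Norrin co-receptor, was lower at 3 days and higher at 7 days (-0.35 ± 0.09, adjusted p = 0.0060; 0.44 ± 0.09, adjusted p = 0.0020). Ryk, a Wnt receptor without a Frizzled fold, was lower at 3 days (-0.32 ± 0.08, adjusted p = 0.0061), and Lgr4, an R-spondin receptor, was higher at 7 days (0.31 ± 0.10, adjusted p = 0.020).

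Inside the cell, 18 of 24 genes of cytoplasmic transduction were measurable. At 3 days 4 were higher and 3 lower, and at 7 days 1 was higher and 9 lower in rcCHIL3. The list's median was 0.05 and -0.20. Ctnnb1, which encodes beta-catenin, was -0.09 ± 0.05 at 3 days (adjusted p = 0.20) and -0.33 ± 0.05 at 7 days (adjusted p = 0.00057), with 7-day mean signals of 2003 (rcCHIL3) and 2521 (MHM+GF); it was named as the pathway's central gene and not for its rank. By size of change, Btrc, which marks beta-catenin for degradation, was higher at 3 days and lower at 7 days (0.46 ± 0.13, adjusted p = 0.010; -0.57 ± 0.13, adjusted p = 0.0037). Csnk1e, a kinase of Dvl and other partners, was lower at 7 days (-0.46 ± 0.07, adjusted p = 0.00041), and Gsk3a, a kinase of the degrading complex, was higher then (0.46 ± 0.11, adjusted p = 0.0052). Dvl2, which relays the receptor's signal, was lower at both days (-0.36 ± 0.09, adjusted p = 0.0064; -0.45 ± 0.09, adjusted p = 0.0022). Of the nuclear cofactors 14 of 16 were measurable, with 2 higher and 4 lower at 3 days and 2 higher and 3 lower at 7 days. Tle4, a Groucho co-repressor, was lower at 3 days (-0.52 ± 0.10, adjusted p = 0.0011), Tle5, a short relative, was higher at 7 days (0.72 ± 0.14, adjusted p = 0.0017), Bcl9, which links beta-catenin to its co-activators, was lower at 7 days (-0.53 ± 0.12, adjusted p = 0.0037), and Hipk2, a nuclear kinase, was higher at 3 days and lower at 7 days (0.25 ± 0.07, adjusted p = 0.0085; -0.57 ± 0.07, adjusted p = 5.9e-05).

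Genes of the planar polarity branch were measurable in 14 of 16 cases, with 6 higher and 3 lower at 3 days and 5 higher and 3 lower at 7 days. Prickle1, a cytoplasmic polarity protein, was higher at both days (1.75 ± 0.09, adjusted p = 3.8e-08; 1.00 ± 0.09, adjusted p = 8e-06). Celsr1, a polarity cadherin, was higher at 3 days (1.48 ± 0.09, adjusted p = 1.4e-07). Daam2, a formin that works with Dvl, was higher at both days (0.80 ± 0.13, adjusted p = 0.00034; 1.47 ± 0.13, adjusted p = 6e-06), as was Mapk10, a JNK kinase (1.01 ± 0.13, adjusted p = 6.1e-05; 0.48 ± 0.13, adjusted p = 0.012). Of genes known as Wnt targets in various tissues 10 of 23 were measurable, with 7 higher and 3 lower at 3 days and 3 higher and 4 lower at 7 days, and all of them answer to other signals too. Ccnd1, the G1 cyclin, was lower at both days (-2.56 ± 0.07, adjusted p = 7.1e-10; -0.53 ± 0.07, adjusted p = 0.00016). Cd44, a hyaluronan receptor, was higher at both (1.55 ± 0.08, adjusted p = 4.2e-08; 0.82 ± 0.08, adjusted p = 1.7e-05). Bmp4, a BMP ligand, was higher at 3 days (1.43 ± 0.09, adjusted p = 2.9e-07), and Jag1, a Notch ligand, was lower at both days (-1.43 ± 0.12, adjusted p = 1.5e-06; -0.65 ± 0.12, adjusted p = 0.0010).

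Markers of cell types moved between the same groups. Summed over each list, the signal of the astrocyte markers (8 of 8 measurable) was 7686 to 7898 in rcCHIL3 and 5413 to 5580 in MHM+GF at 3 days, and 9585 to 9884 in rcCHIL3 and 9023 to 9263 in MHM+GF at 7 days. The oligodendrocyte lineage markers (6 of 7) summed to 5907 to 6011 in rcCHIL3 and 3837 to 3866 in MHM+GF at 3 days, and to 5464 to 5709 in rcCHIL3 and 5102 to 5218 in MHM+GF at 7 days. Both glial sums were thus higher in rcCHIL3 on each day, with the wider gap at 3 days. The neuroblast and neuron markers (6 of 8) summed to 1680 to 1691 in rcCHIL3 and 1467 to 1508 in MHM+GF at 3 days, and to 1339 to 1456 in rcCHIL3 and 1972 to 2012 in MHM+GF at 7 days. The stem and progenitor markers (11 of 11) summed to 8634 to 9036 in rcCHIL3 and 11038 to 11586 in MHM+GF at 3 days, and to 9680 to 9710 in rcCHIL3 and 11283 to 11389 in MHM+GF at 7 days. The stem cell sum was lower in rcCHIL3 at both days, and the neuronal sum changed sides. Read beside the same shares over all genes, at 3 days 5 astrocyte markers were called higher and 2 lower, among oligodendrocyte markers 4 and 2, among neuronal markers 4 and 2, and among stem markers 3 and 5. At 7 days the calls were 4 higher and 1 lower, 2 and 0, 1 and 3, and 0 and 6 in the same order of lists. Of 8 ependymal and choroid plexus markers 5 were measurable, with 3 higher and 2 lower at 3 days and 2 higher and 1 lower at 7 days. Their list summed to 525 to 863 in rcCHIL3 and 414 to 597 in MHM+GF at 3 days. At 7 days it summed to 1058 to 1238 in rcCHIL3 and 814 to 1065 in MHM+GF, so the media overlapped at both days. Of 8 mural and fibroblast markers 3 were measurable, Pdgfrb, Rgs5 and Acta2, and the list's sum was 200 to 205 in rcCHIL3 and 111 to 128 in MHM+GF at 3 days (2 called higher and 0 lower), and 146 to 152 in rcCHIL3 and 486 to 541 in MHM+GF at 7 days (0 higher and 2 lower). What part these shifts have in the changes of the Wnt members was not tested.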

How the data were processed

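The signals are intensities on a linear scale, which the authors made with MAS5 (GeneChip Operating Software in the methods, Affymetrix Expression Console 1.1 per the labels) from 100 ng of total RNA and deposited for Affymetrix Mouse Genome 430 2.0 arrays, with no detection calls used here. Signals were rescaled so that every array averaged 100. Probe sets with a signal of at least 50 on at least 2 of 8 arrays were kept, and log2(signal + 20) went into 1 limma fit (version 3.58.1, R 4.3.3; 4 group means, trended eBayes, 4 residual degrees of freedom; two-sided, Benjamini-Hochberg adjustment over the kept probe sets, threshold 0.05). Percentages of all genes are over the brightest kept probe set of each gene. For dim members the fit held every probe set of the array. The number of arrays limits the precision.

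Of 45101 probe sets, 34958 carry 1 gene symbol in the platform annotation, 932 several and 9211 none. The array numbers in the labels did not pair the groups, so no block was used. Every measurable member was named, with array values for those called at a change of at least 0.5 on either day and for the measurable Tcf/Lef factors; from each other list the called genes with the largest changes, at most 4, were named. The members and the gene lists were chosen with earlier results of these data known. The fit was tested on simulated data. Python 3.11.15 with numpy 2.4.6, pandas 2.3.3 and matplotlib 3.10.9 made the tables and plots.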

Additional observations from a re-analysis of the deposited data

Results flagged for a closer look

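For 13 of the 21 measurable members the change in rcCHIL3 relative to MHM+GF differed between 7 and 3 days by the test of that difference, given here as 7 days minus 3 days in log2(signal + 20). For 6 of them it was more positive at 7 days. Wnt7b gave 0.73, Fzd2 0.44, Fzd6 0.44, Sfrp2 0.39, Fzd9 0.38 and Fzd7 0.34. For 7 it was less positive. Tcf7l1 gave -0.98, Wnt4 -0.82, Fzd5 -0.72, Dkk3 -0.68, Fzd8 -0.58, Sfrp1 -0.38 and Fzd3 -0.33.

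Several of these differences were not called once 1 array was left out. The call of Fzd3 was lost without rcCHIL3 3 days replicate 1 (-0.27, adjusted p = 0.058), and its probe sets disagreed in direction at 7 days. Of the 3 probe sets of Fzd2, 2 were called more positive at 7 days and 1 less positive, between -0.35 and 0.83. Those of Fzd6 (0.40 to 0.44), Fzd7 (0.31 to 0.38), Fzd8 (-0.57 to -0.42), Fzd9 (0.30 to 0.40), Sfrp1 (-0.41 to -0.34) and Sfrp2 (0.29 to 0.42) were each lost without 1 of 4 to 7 of the 8 arrays. The arrays that could be left out with the call kept were, for Fzd6, MHM+GF 3 days replicate 2, MHM+GF 7 days replicate 1 and rcCHIL3 3 days replicate 1, and for Fzd8 the same 3 and rcCHIL3 7 days replicate 2. They were MHM+GF 7 days replicate 1 for Fzd7, replicate 2 of both 7-day groups for Fzd9, rcCHIL3 7 days replicate 2 for Sfrp1 and rcCHIL3 7 days replicate 1 for Sfrp2. The smallest values came without rcCHIL3 7 days replicate 2 in Sfrp2, without MHM+GF 7 days replicate 1 in Fzd9 and without rcCHIL3 7 days replicate 1 in Fzd8. Those of Wnt7b, Fzd2, Tcf7l1, Wnt4, Fzd5 and Dkk3 were kept in each such fit. Wnt4, Fzd6 and Dkk3 reached 50 only on arrays of groups in which they were high, so their differences are not independent of the filter. At the second measurable probe set of Tcf7l1 the difference was -0.48 (adjusted p = 0.19). Of the 3 measurable probe sets of Sfrp1 only the brightest was called.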

How the results depend on the processing

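The counts of called members fell with the methods' t-test after adjustment, to 3 at 3 days, 0 at 7 days, 0 over time in rcCHIL3 and 5 over time in MHM+GF, against 13, 10, 12 and 13 with limma; unadjusted, the same test called 11, 8, 10 and 12. With a filter of 100, which left 14 members, 6 were called over time in rcCHIL3, 8 over time in MHM+GF and 8 for the difference between the days. With a filter on the mean over 8 arrays of 50, chosen after seeing the data, 7 were called over time in rcCHIL3. Leaving out 1 array gave 9 to 14 calls at 3 days, 7 to 10 at 7 days, 8 to 13 over time in rcCHIL3, 11 to 13 over time in MHM+GF and 7 to 10 for the difference between the days. Testing without a filter, raising the offset to 50, replacing it by a floor of 10, the deposited scale, quantile normalization, centring on the median, other eBayes settings and the mean of a gene's probe sets kept each count within 1.5 times. Without a filter, however, the counts were over 52 members, and on the deposited scale over 32, against 21. Testing all 52 ended the calls of Dkk3, Fzd1, Wnt7a and Znrf3 at 3 days and of Dkk3, Fzd6 and Tcf7l1 at 7 days. It also ended those of Dkk3 and Fzd8 over time in rcCHIL3 and of Dkk3 and Tcf7l1 in MHM+GF. Between the days Fzd6, Fzd8, Fzd9, Sfrp1 and Sfrp2 lost theirs. Of the single members' values, 44, 32, 33, 23 and 49 lost their call under an alternative (at 3 days, at 7 days, over time in rcCHIL3, over time in MHM+GF and between the days), 9, 9, 7, 4 and 6 gained one and 418, 430, 431, 443 and 353 did neither. In 1 case the direction turned: the rise of Fzd3 over time in MHM+GF became -0.11 (adjusted p = 0.31) with the mean of its probe sets. The deposited scale ended the calls of Dkk3, Fzd1, Wnt5a, Wnt7a and Znrf3 at 3 days, Dkk3 and Fzd6 at 7 days, Dkk3 over time in rcCHIL3, Dkk3, Fzd3 and Tcf7l1 over time in MHM+GF and Fzd3, Fzd7, Fzd8 and Sfrp1 between the days. On that scale 44.5% of all called probe sets were higher at 3 days, against 55.1% after rescaling, with 65.2% against 48.4% at 7 days, 67.6% against 50.1% over time in rcCHIL3 and 66.3% against 45.3% for the difference between the days, where the median of all probe sets moved to 0.12, against -0.04 after rescaling.

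With the array number as a block the calls were 13, 11, 11, 13 and 14, against 13, 10, 12, 13 and 13 without the pairing; arrays of the same number correlated at -0.009 to 0.102 in their deviations from the group means. With this block Wnt4 at 7 days (adjusted p = 0.049), Tcf7l2 at 3 days (0.031) and the difference between the days of Lrp6 (0.040) were called, and Wnt7a at 3 days (0.053) and Dkk3 over time in rcCHIL3 (0.054) were not; no other call changed.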
